A study of Trichoderma reesei with 9 samples.

Results

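The main cellulase genes of *Trichoderma reesei* are described here as 7 genes taken by name from the 10348 genes of the deposited table. They are the cellobiohydrolase genes cel7a and TRIREDRAFT_72567 (glycoside hydrolase family 6, GH6), the endoglucanase genes cel7b, cel12a and TRIREDRAFT_49976 (family 45, GH45), the family 61 gene cel61b, and cip2. The families named are those the deposited table gives, and cip2 is listed there only by its carbohydrate-binding module. RNA-seq counts came from mycelia of the deletion strains Δvps21 and Δvps13 and of Rut-C30, with 3 libraries per strain. All mycelia were taken after 96 h in medium with Avicel, a microcrystalline cellulose. Rut-C30 is the strain the labels call wild type, and that name is used below, although Rut-C30 is itself a mutant bred for high cellulase output. The labels give no other allele, and they do not say how many clones of a deletion strain were used or whether replicates were separate cultures. Each p-value below therefore measures only the spread between these libraries, which may be technical.

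*Trichoderma reesei* breaks down cellulose with secreted enzymes that act in concert. Cellobiohydrolases run along a cellulose chain from its end and release cellobiose, endoglucanases cut within the chain, and the family 61 proteins, now known as lytic polysaccharide monooxygenases, break crystalline chains by oxidation. The genes are induced together on cellulose by the activator Xyr1 and repressed on glucose through Cre1. The products of vps13 and vps21 act in transport of lipids and cargo among endosomes and the vacuole in other fungi, Vps21 being a Rab5-type GTPase. Cip2 is a glucuronoyl esterase, which cuts the bond between hemicellulose and lignin, so the set of 7 holds 5 cellulases in the strict sense and 2 accessory proteins.

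In the deposited coordinates, whose genome build is not given in the sources used here, each of the 7 genes lies on a scaffold of its own. The start and end of all 7 were the same in a RefSeq gene table of the QM6a v2.0 assembly. cel7a runs from 332378 to 334401 on the plus strand of NW_006711176.1, a span of 2024 bases with a gene model of 1893 bases. TRIREDRAFT_72567 spans 12521 to 14440 on the plus strand of NW_006711150.1, near the scaffold's start, and cel7b spans 665665 to 667273 on the plus strand of NW_006711157.1. The shorter endoglucanase genes lie on minus strands. cel12a spans 258995 to 259926 of NW_006711166.1 with a model of 811 bases, and TRIREDRAFT_49976 spans 200129 to 201106 of NW_006711162.1 with a model of 856 bases. cel61b spans 816304 to 817521 on the minus strand of NW_006711152.1, and cip2 spans 380280 to 381719 on the plus strand of NW_006711175.1. In all 7 genes the model is shorter than the span, so each span includes intron sequence, and counts refer to the exons of the model.

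The gene deleted in Δvps21 was looked for first. The deposited table names no gene vps21 and describes 2 genes as rab5-like GTPases. TRIREDRAFT_123015 had 2, 2 and 2 counts in the Δvps21 libraries, 1740, 1295 and 1147 counts in Δvps13 and 1607, 1365 and 1529 counts in the wild type. TRIREDRAFT_122593 had 2596, 2385 and 2231 counts in Δvps21, 2432, 2289 and 1980 in Δvps13 and 2123, 2022 and 2123 in the wild type. TRIREDRAFT_123015 was thus nearly absent from the libraries labelled Δvps21 and present in all others. The vps13 gene was not matched to an identifier and its transcript is not followed here. Library totals lay between 12127372 and 13493219 counts, with 9466 to 9722 genes detected. The Δvps13 libraries differed most from each other, at 147 to 334 chi-square units per degree of freedom over pairs of replicates, against 28.6 to 56.2 in Δvps21 and 13.1 to 32.3 in the wild type. The factors that TMM scaling applied to the library totals differed in Δvps13 replicates 1, 2 and 3 as well, at 1.213, 0.8405 and 0.6987. The labelled tissue was looked at through 4 genes for hydrophobins, small surface proteins of aerial hyphae and conidia. hfb1 had 0, 1 and 0 counts in Δvps21, 0, 4 and 0 in Δvps13 and 0, 0 and 0 in the wild type, while hfb2 and hfb3 were detected throughout. TRIREDRAFT_106538, a class II hydrophobin gene, had 14498, 15057 and 12114 counts in Δvps21, 1216, 2611 and 37 in Δvps13 and 111, 92 and 104 in the wild type. The summed hydrophobin level ran from 8970 to 13341 CPM in Δvps21, from 1961 to 10819 CPM in Δvps13 and from 3571 to 4399 CPM in the wild type. Within Δvps13 it was highest in replicate 2 and lowest in replicate 3. The part of these differences in the cellulase results was not tested.

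Transcripts of all 7 genes were more abundant in both deletion strains than in the wild type, without overlap between libraries of a deletion strain and those of the wild type. In Δvps21 they stood 2.57 to 6.88-fold above the wild type, and in Δvps13 2.94 to 6.97-fold. The levels below are in CPM, counts brought to a common library size by TMM scaling, which suit comparison of 1 gene between strains. The tests are edgeR quasi-likelihood tests over 8906 genes with Benjamini-Hochberg adjustment, and called means an adjusted p under 0.05. In these bulk samples, more cells with a transcript and more of it per cell cannot be told apart.

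**Figure D1:**
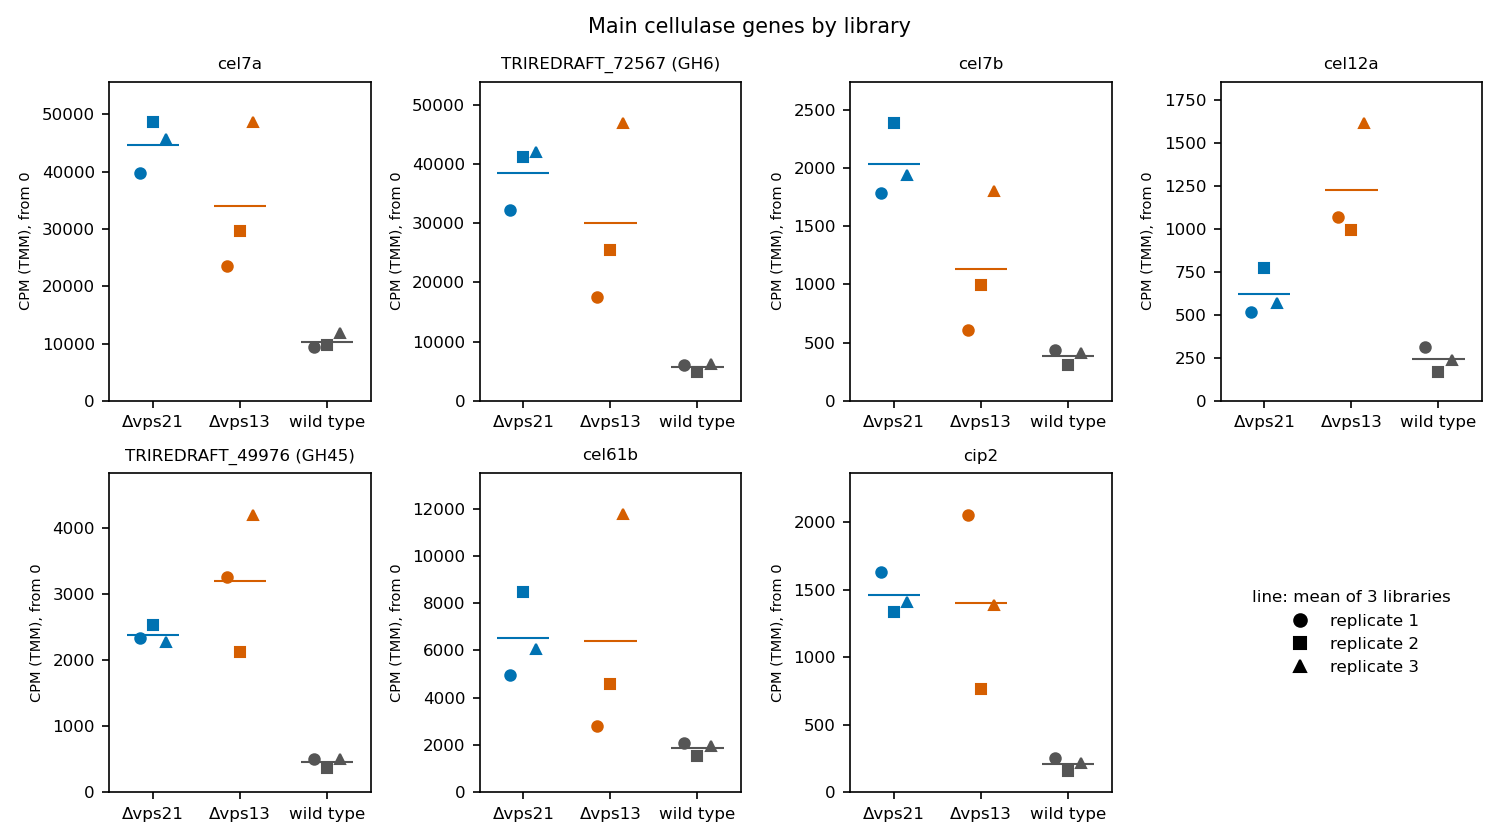
Each panel plots 1 gene, with TMM-scaled CPM on an axis from 0; symbols are single libraries by replicate number and lines are means of 3 libraries. All 3 libraries of Δvps21 and of Δvps13 sit above all 3 wild-type libraries in every panel, and the Δvps13 libraries are spread widest.

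The cellobiohydrolase genes carried most of the signal. cel7a, whose product works from the reducing chain end, had 39824, 48660 and 45666 CPM in Δvps21 replicates 1 to 3. It had 23576, 29605 and 48687 CPM in Δvps13 and 9354, 9742 and 11836 CPM in the wild type. The Δvps13 replicate 3 value lay at the top of the Δvps21 range, while Δvps13 replicates 1 and 2 lay below that range. cel7a was 4.34-fold higher in Δvps21 than in the wild type (log2 2.12 ± 0.42 SE, adjusted p = 0.00358 by edgeR) and 3.29-fold higher in Δvps13 (log2 1.72 ± 0.42, adjusted p = 0.0264). TRIREDRAFT_72567, the GH6 gene, had 32317, 41141 and 42111 CPM in Δvps21, 17470, 25506 and 46926 CPM in Δvps13 and 6065, 4799 and 6215 CPM in the wild type. The GH6 gene followed the same library order as cel7a within Δvps13, and its highest library was again replicate 3. It was 6.77-fold higher in Δvps21 than in the wild type (log2 2.76 ± 0.46, adjusted p = 0.00147 by edgeR) and 5.26-fold higher in Δvps13 (log2 2.40 ± 0.46, adjusted p = 0.011).

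The endoglucanase genes were higher in both deletion strains, with different orders between the strains. cel7b, the GH7 endoglucanase and a relative of cel7a, had 1780, 2388 and 1941 CPM in Δvps21, 611, 997 and 1798 CPM in Δvps13 and 433, 309 and 414 CPM in the wild type. Its lowest Δvps13 library stood close above the highest wild-type library. cel7b was 5.28-fold higher in Δvps21 than in the wild type (log2 2.40 ± 0.38, adjusted p = 0.00111 by edgeR) and 2.94-fold higher in Δvps13 (log2 1.56 ± 0.37, adjusted p = 0.0252). cel12a, which encodes a small endoglucanase, had 520, 771 and 567 CPM in Δvps21, 1070, 992 and 1617 CPM in Δvps13 and 316, 171 and 236 CPM in the wild type. For cel12a every Δvps13 library exceeded every Δvps21 library, and every Δvps21 library exceeded every wild-type library. cel12a was 2.57-fold higher in Δvps21 than in the wild type (log2 1.36 ± 0.31, adjusted p = 0.00716 by edgeR) and 5.09-fold higher in Δvps13 (log2 2.35 ± 0.32, adjusted p = 0.00268). TRIREDRAFT_49976, the GH45 endoglucanase gene, had 2331, 2525 and 2271 CPM in Δvps21, 3260, 2126 and 4197 CPM in Δvps13 and 508, 363 and 504 CPM in the wild type. The Δvps13 libraries of the GH45 gene lay on both sides of the narrow Δvps21 range. It was 5.18-fold higher in Δvps21 than in the wild type (log2 2.37 ± 0.32, adjusted p = 4.31e-04 by edgeR) and 6.97-fold higher in Δvps13 (log2 2.80 ± 0.32, adjusted p = 0.00139).

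The accessory genes cel61b and cip2 were also higher in both deletion strains. cel61b had 4973, 8481 and 6074 CPM in Δvps21, 2816, 4590 and 11762 CPM in Δvps13 and 2088, 1538 and 1952 CPM in the wild type. Among the 7 genes it had the widest spread within Δvps13, where the highest library held 4.18 times the lowest. cel61b was 3.50-fold higher in Δvps21 than in the wild type (log2 1.81 ± 0.49, adjusted p = 0.0169 by edgeR) and 3.44-fold higher in Δvps13 (log2 1.78 ± 0.49, adjusted p = 0.0433). Without Δvps13 replicate 3 the Δvps13 difference of cel61b was log2 1.01 (adjusted p = 0.0338). cip2 had 1628, 1338 and 1411 CPM in Δvps21, 2054, 765 and 1390 CPM in Δvps13 and 256, 162 and 218 CPM in the wild type. For cip2 the highest Δvps13 library was replicate 1. It was 6.88-fold higher in Δvps21 than in the wild type (log2 2.78 ± 0.37, adjusted p = 4.00e-04 by edgeR) and 6.62-fold higher in Δvps13 (log2 2.73 ± 0.37, adjusted p = 0.00268).

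In Δvps21, all 7 genes were called higher than in the wild type, where 16.7% of the 8906 tested genes were called higher, and all 7 had libraries that did not overlap in that direction, as did 30.2% of tested genes. Their median log2 difference was 2.37, beside -0.02 over all tested genes. In Δvps13 relative to the wild type all 7 were also called higher, where 5.65% of tested genes were, and all 7 did not overlap, as did 14.0% of tested genes. Their median there was 2.35, beside 0.04 over all tested genes. Both comparisons use the same wild-type libraries, and the fit takes the spread of each gene from all libraries together. The Δvps13 calls thus also rest on the Δvps21 libraries, whose replicates differed less. Fitted with the wild type alone, Δvps13 had only 3 of the 7 called, cel12a, TRIREDRAFT_49976 and cip2, where 1.77% of tested genes were called higher. The adjusted p in that fit was 0.118 for cel7a, 0.0612 for TRIREDRAFT_72567, 0.0772 for cel7b and 0.115 for cel61b (edgeR). Scaling by library totals alone moved the median of all tested genes to -0.20 in Δvps21 and to -0.26 in Δvps13. Under it 872 genes were called higher and 1678 lower in Δvps21, against 1489 and 1408 with TMM, and 173 were called higher and 1089 lower in Δvps13, against 503 and 423 with TMM. All 7 cellulase genes were called higher in both comparisons under that scaling too.

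**Figure D2:**
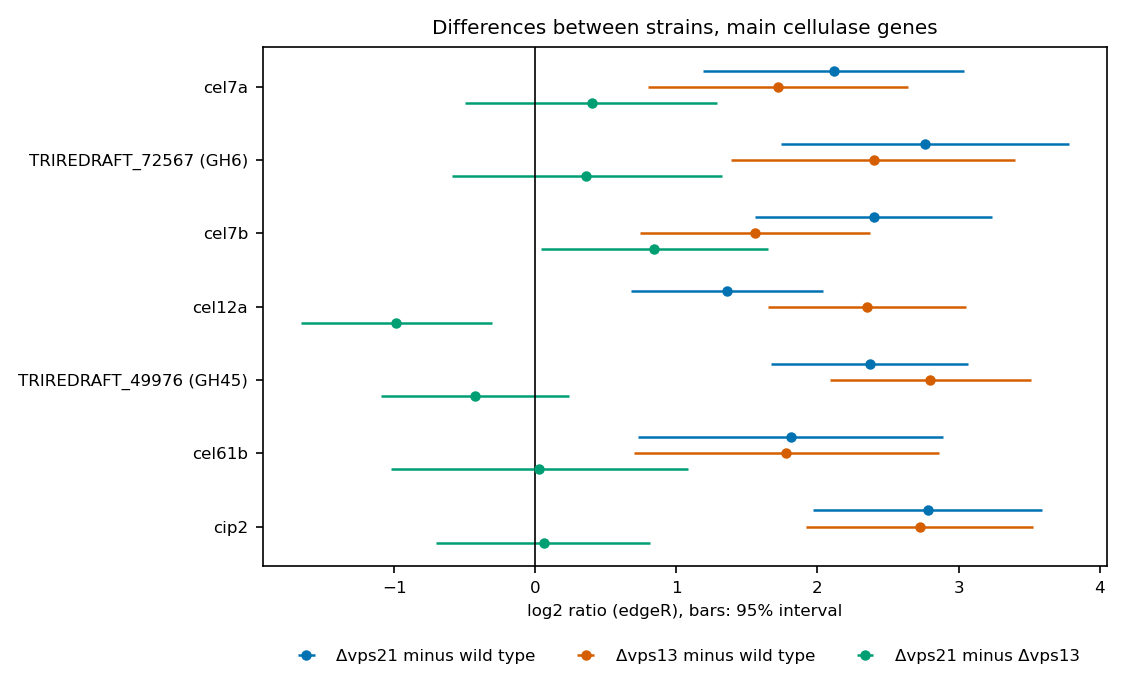
Points are log2 differences from edgeR for each gene and bars are 95% intervals, for Δvps21 minus wild type, Δvps13 minus wild type and Δvps21 minus Δvps13. All 14 intervals against the wild type lie above 0, and of the 7 intervals between the deletion strains the one of cel7b lies above 0 and the one of cel12a below it.

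The calls depended on single libraries more in Δvps13 than in Δvps21. With each of the 9 libraries left out in turn, 6 of the 7 genes stayed called in Δvps21 in all 9 fits. cel61b was the exception, with an adjusted p of 0.0768 without wild-type replicate 2, 0.0521 without wild-type replicate 3 and 0.0601 without Δvps21 replicate 2 (edgeR). In Δvps13, cel12a, TRIREDRAFT_49976 and cip2 stayed called in all 9 fits, and the other 4 genes did not pass without any 1 of the 3 wild-type libraries. cel7a also missed the threshold without Δvps21 replicates 2 or 3, with adjusted p-values of 0.0548 to 0.139 over its 5 uncalled fits. TRIREDRAFT_72567 had adjusted p-values of 0.052 to 0.0773 in its 3 uncalled fits. cel7b missed the threshold without Δvps13 replicate 2 as well, with 0.0501 to 0.126 over 4 fits. cel61b missed it without Δvps13 replicate 2 or any Δvps21 library, with 0.0609 to 0.175 over 7 fits. The direction was higher in the deletion strain in every one of these fits for all 7 genes. Of all tested genes, 10.5% to 24.2% were called higher in Δvps21 over the 9 fits and 0.878% to 18.2% in Δvps13. The Δvps13 share was 0.878% to 1.68% in the fits without 1 wild-type library.

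**Figure D3:**
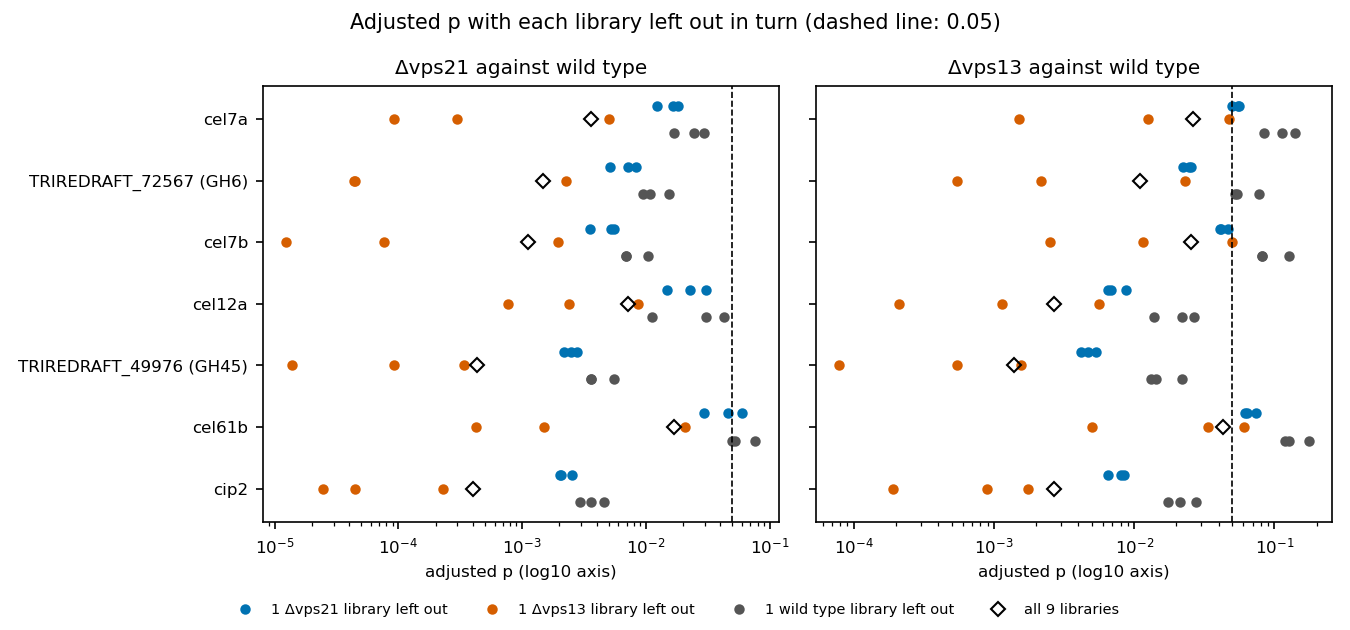
Each row is 1 gene and the horizontal log10 axis gives the edgeR adjusted p with all 9 libraries (diamonds) or with 1 library left out (dots coloured by the strain of that library). In the Δvps21 panel cel61b alone crosses the dashed line at 0.05; in the Δvps13 panel cel12a, TRIREDRAFT_49976 and cip2 stay below it.

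Between the deletion strains 0 of the 7 genes were called by edgeR, where 15.2% of tested genes were called in either direction, and 2 had an unadjusted p under 0.05. cel12a was lower in Δvps21 than in Δvps13 by log2 -0.99 (95% interval -1.66 to -0.31, unadjusted p = 0.00806 and adjusted p = 0.0518 by edgeR). It was the only 1 of the 7 whose libraries did not overlap between these strains, where 31.0% of tested genes did not. Its adjusted p fell under the threshold without Δvps13 replicate 1 (0.0264) or replicate 2 (0.0495), with DESeq2 (0.00858) and with limma voom using sample quality weights (0.0176). cel7b was 1.79-fold higher in Δvps21 than in Δvps13 (95% interval 1.03 to 3.13-fold, unadjusted p = 0.0413 and adjusted p = 0.145 by edgeR). Its adjusted p was 0.00656 without Δvps13 replicate 3, the highest Δvps13 library for cel7b, and 0.00313 with limma voom. With library totals only, the adjusted p of cel7b was 0.0147 by edgeR. The limma voom fit weighted Δvps13 replicates 1, 2 and 3 by 0.1874, 2.725 and 0.1706. All limma voom values given here that involve Δvps13 therefore rest mostly on its replicate 2. DESeq2 called 1 of the 7 and limma voom 3, the third being cip2 (adjusted p = 0.0198). Replicate 2 was the lowest Δvps13 library for cip2, whose log2 difference was 0.80 with limma voom and 0.06 with edgeR. Of all tested genes, DESeq2 called 21.9% and limma voom 33.8% in either direction, so nothing is read from these counts.

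The intervals of the other 5 genes left room for sizeable differences between the deletion strains. The ratio of Δvps21 to Δvps13 was 1.32 for cel7a (95% interval 0.71 to 2.44) and 1.29 for TRIREDRAFT_72567 (0.66 to 2.49). For TRIREDRAFT_49976 the ratio was 0.74 (0.47 to 1.18). It was 1.02 for cel61b (0.49 to 2.11) and 1.04 for cip2 (0.62 to 1.76). None of the 5 intervals excludes a ratio of 1, and these genes do not thereby count as equal in the 2 strains. With library totals only, cel7a was called higher in Δvps21 than in Δvps13 (log2 0.60, adjusted p = 0.0449 by edgeR).

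Levels of different genes were set side by side in the deposited FPKM, which divide counts by gene length. cel7a was the most abundant of the 7 in each strain by mean, with 23631 ± 2349 FPKM in Δvps21, 17948 ± 6754 in Δvps13 and 5398 ± 774 in the wild type (SD, n = 3 each). TRIREDRAFT_72567 came next, with 22345 ± 3169 FPKM in Δvps21, 17372 ± 8659 in Δvps13 and 3267 ± 454 in the wild type. The cellobiohydrolase pair overlapped in the deletion strains, and in the wild type every cel7a value lay above every GH6 value. cel61b had the next mean in every strain, with 6350 ± 1724 FPKM in Δvps21, 6224 ± 4553 in Δvps13 and 1795 ± 270 in the wild type. TRIREDRAFT_49976 followed cel61b by mean in every strain, with 2776 ± 140 FPKM in Δvps21, 3734 ± 1178 in Δvps13 and 530 ± 95.9 in the wild type. The 2 genes overlapped in Δvps13, where TRIREDRAFT_49976 stood above cel61b in replicate 1, at 3827 and 2761 FPKM.

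The order of the 3 least abundant genes differed between strains. In Δvps21 it was cel7b with 1374 ± 207 FPKM, cip2 with 1056 ± 109 and cel12a with 764 ± 161, and no neighbours among these overlapped. In Δvps13 it was cel12a with 1514 ± 404 FPKM, cip2 with 1016 ± 467 and cel7b with 766 ± 402, and neighbours overlapped. In the wild type it was cel12a with 294 ± 86 FPKM, cel7b with 258 ± 44 and cip2 with 152 ± 32.9, with an overlap between cel12a and cel7b only. cel12a was thus the least abundant of the 7 in Δvps21 and the fifth in Δvps13 and the wild type. Outside the 7, cel5a, which encodes a further endoglucanase, reached 4361 ± 578 FPKM in Δvps21, 3495 ± 1598 in Δvps13 and 1445 ± 199 in the wild type. cel61a, the second named family 61 gene, reached 4888 ± 265 FPKM in Δvps21, 2496 ± 1261 in Δvps13 and 1043 ± 148 in the wild type. The name of the set therefore does not mean that its 7 genes are the 7 most abundant cellulose-active transcripts.

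Together the 7 genes took 8.96%, 10.2% and 9.38% of all gene counts in the Δvps21 libraries, 6.17%, 5.43% and 8.13% in Δvps13 and 2.27%, 1.91% and 2.29% in the wild type. The strain means were 9.53 ± 0.659% in Δvps21, 6.57 ± 1.4% in Δvps13 and 2.16 ± 0.215% in the wild type (SD, n = 3 each). The ranges of the 3 strains did not overlap. With the 50 most abundant other genes left out of the denominator the deletion strains did overlap, at 12.2% to 14.3% in Δvps21 and 8.26% to 13.2% in Δvps13, above 2.81% to 3.44% in the wild type. The cellobiohydrolase pair made up 80.7% to 87.7% of the counts of the 7 genes in every library. As shares of all counts, cel7a, TRIREDRAFT_72567 and cel7b were higher in every Δvps21 library than in any Δvps13 library, as were 18.1% of tested genes, and cel12a was lower, as were 9.11%. A share of counts depends on what other genes take up, and on the TMM scale only cel12a kept groups that did not overlap between these strains.

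**Figure D4:**
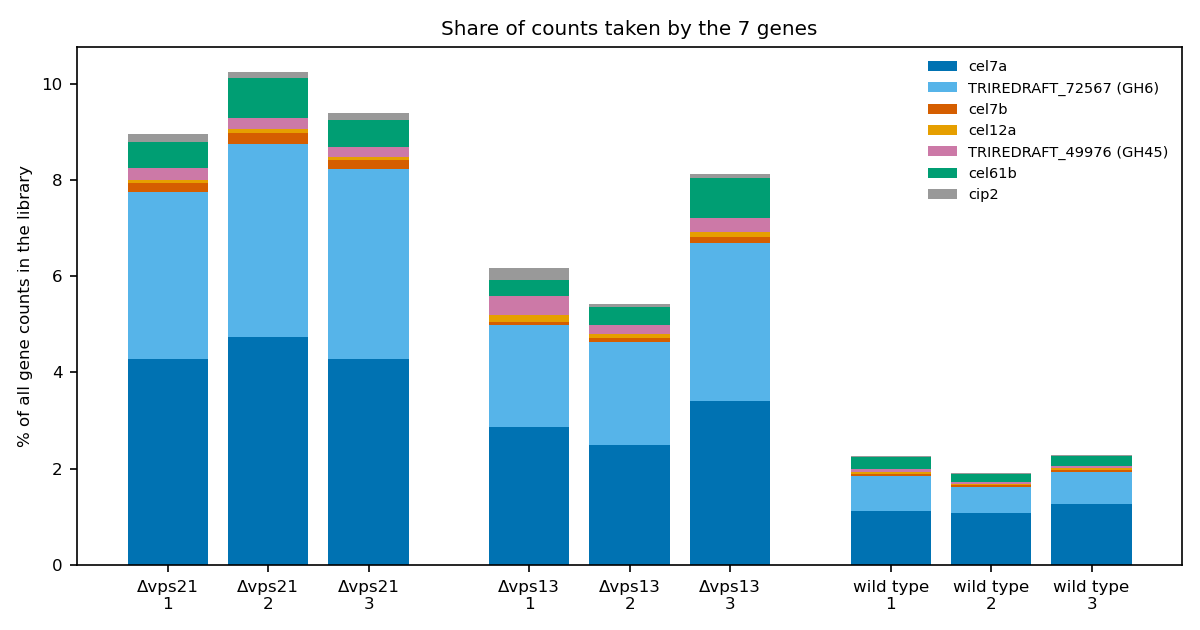
Bars give, for each library, the percent of all gene counts that fell on the 7 genes, stacked by gene from cel7a at the bottom to cip2 at the top. The Δvps21 bars reach 8.96% to 10.2%, the Δvps13 bars 5.43% to 8.13% and the wild-type bars 1.91% to 2.29%, and the cellobiohydrolase pair fills most of each bar.

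The balance among the 7 genes was read within each library as the FPKM of a gene in percent of cel7a, a ratio that no scaling of the library can change. The GH6 gene TRIREDRAFT_72567 stood at 89.1%, 92.8% and 101% of cel7a in Δvps21, at 81.3%, 94.5% and 106% in Δvps13 and at 71.1%, 54.1% and 57.6% in the wild type. Both deletion strains lay above the wild type without overlap, by log2 0.64 in Δvps21 and 0.63 in Δvps13. The balance between the cellobiohydrolase transcripts was thus closer to even in the deletion strains. cip2 stood at 5.59%, 3.76% and 4.23% of cel7a in Δvps21, at 11.9%, 3.54% and 3.91% in Δvps13 and at 3.75%, 2.28% and 2.52% in the wild type. The lowest Δvps21 value, 3.76%, barely cleared the highest wild-type value, 3.75%, while in Δvps13 replicate 1 stood apart and replicate 2 overlapped the wild type. Without Δvps13 replicate 1 the log2 difference of that ratio between Δvps13 and the wild type was 0.42, against 0.98 with all libraries.

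Relative to cel7a, the endoglucanase genes differed in direction between Δvps21 and Δvps13, cel7b being higher in Δvps21 and cel12a and the GH45 gene lower. cel12a stood at 3.05%, 3.7% and 2.9% of cel7a in Δvps21, at 10.6%, 7.82% and 7.75% in Δvps13 and at 7.89%, 4.09% and 4.65% in the wild type. Relative to cel7a, cel12a was lower in Δvps21 than in either other strain without overlap, although its CPM was higher in Δvps21 than in the wild type. In CPM, cel7a was 4.34-fold higher in Δvps21 than in the wild type and cel12a 2.57-fold. Any gene that rose less than cel7a falls in this ratio. TRIREDRAFT_49976 stood at 12.9%, 11.5% and 11% of cel7a in Δvps21, at 30.6%, 15.9% and 19.1% in Δvps13 and at 12%, 8.23% and 9.42% in the wild type. It was highest relative to cel7a in Δvps13, without overlap with Δvps21 or the wild type. cel7b stood at 5.71%, 6.27% and 5.43% of cel7a in Δvps21, at 3.31%, 4.3% and 4.72% in Δvps13 and at 5.91%, 4.06% and 4.47% in the wild type. cel7b was higher relative to cel7a in Δvps21 than in Δvps13 without overlap, and both deletion strains overlapped the wild type. cel61b stood at 23.1%, 32.2% and 24.6% of cel7a in Δvps21, at 22.1%, 28.6% and 44.6% in Δvps13 and at 41.2%, 29.2% and 30.5% in the wild type, and all 3 strains overlapped.

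These ratios share cel7a as their denominator and were compared by two-sided exact permutation tests of 3 libraries against 3, whose smallest possible p is 0.1. Over the 18 tests the smallest adjusted p was 0.225, so no ratio could pass the threshold with this test. The non-overlapping ratios were 3 of 6 for Δvps21 relative to the wild type, 2 of 6 for Δvps13 relative to the wild type and 3 of 6 for Δvps21 relative to Δvps13. Over the 8905 tested genes other than cel7a, these 6 included, that ratio did not overlap for 93.7% in Δvps21 relative to the wild type, 81.7% in Δvps13 relative to the wild type and 32.6% in Δvps21 relative to Δvps13, so nothing is read from the counts.

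**Figure D5:**
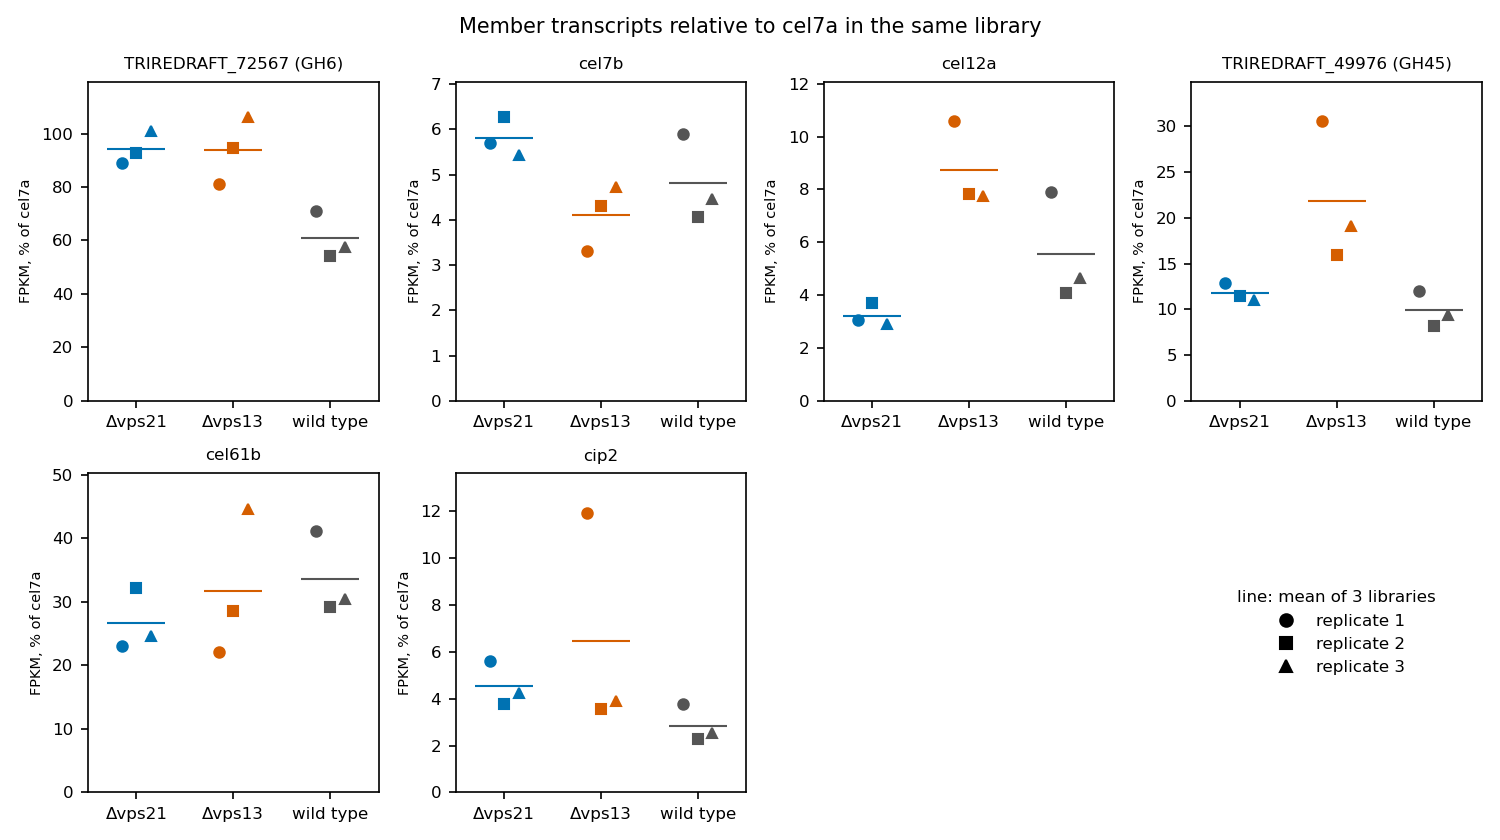
Each panel gives the FPKM of 1 gene in percent of cel7a in the same library on an axis from 0; symbols are libraries by replicate number and lines are means of 3 libraries. TRIREDRAFT_72567 lies higher in both deletion strains than in the wild type, cel12a lies lowest in Δvps21, and Δvps13 replicate 1 stands highest for cel12a, TRIREDRAFT_49976 and cip2.

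Within Δvps13 the genes fell into different orders over the 3 replicates. In CPM the highest library was replicate 3 for 6 genes and replicate 1 for cip2. As a share of all counts it was replicate 3 for cel7a, TRIREDRAFT_72567, cel7b and cel61b, and replicate 1 for cel12a, TRIREDRAFT_49976 and cip2. The 2 scales differ by the TMM factors given above. In percent of cel7a, which needs no scaling, replicate 1 was the highest Δvps13 library for cel12a, TRIREDRAFT_49976 and cip2 and the lowest for TRIREDRAFT_72567, cel7b and cel61b. The highest Δvps13 library held 1.63 times the CPM of the lowest for cel12a, 2.07 times for cel7a, 2.69 times for TRIREDRAFT_72567 and 2.94 times for cel7b. In Δvps21 these ratios ran from 1.11 for TRIREDRAFT_49976 to 1.71 for cel61b, and in the wild type from 1.27 for cel7a to 1.85 for cel12a.

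Over the 9 libraries, the log2 levels of the 7 genes followed each other, and since the libraries form strain clusters the values are a description of these libraries, with no p. Pearson's r between pairs ran from 0.677 for cel7b with cel12a to 0.994 for cel7a with TRIREDRAFT_72567. TRIREDRAFT_49976 had an r of 0.966 with cip2 and 0.940 with cel12a, above its r of 0.848 with cel61b. cel12a had the lowest r with the mean of the 7, at 0.885. Among 5769 other genes with a mean of at least 10 CPM, the 10 most like the mean of the 7 included man5a, a secreted mannanase gene (r = 0.993), and cip1, which like cip2 carries a cellulose-binding module (r = 0.989). They also included the GH28 gene TRIREDRAFT_103049 (r = 0.982), cel5a (r = 0.961) and TRIREDRAFT_111927, described as the translocation protein SEC72 (r = 0.960). The other 5 are described only as predicted proteins.

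In Δvps21 relative to the wild type, 5 of 14 tested other cellulose-active genes rose and 1 fell, with a median log2 difference of 0.43, where 16.7% of all 8906 tested genes rose and 15.8% fell. man5a averaged 1193 ± 124 CPM in Δvps21 and 242 ± 64.3 CPM in the wild type (log2 2.30, adjusted p = 0.00143 by edgeR). cel61a averaged 6338 ± 358 CPM in Δvps21 and 1367 ± 203 CPM in the wild type (log2 2.21, adjusted p = 0.0017). cel5a averaged 7044 ± 933 CPM in Δvps21 and 2361 ± 343 CPM in the wild type (log2 1.58, adjusted p = 0.0086, and 0.0506 without wild-type replicate 2). The gene that fell was TRIREDRAFT_123946, a dehydrogenase gene whose description links it to cellulase signalling, with 9.89 ± 0.744 CPM in Δvps21 and 87.7 ± 6.41 CPM in the wild type (log2 -3.15, adjusted p = 3.04e-05). The list is a name pattern that also catches genes of other activity, such as man5a and this dehydrogenase gene. Leaving out wild-type replicate 2 brought the rises to 3, and leaving out Δvps13 replicate 3 brought the falls to 3.

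β-Glucosidases split cellobiose to glucose. The list called β-glucosidase genes here takes every gene described as family 1 or 3, and those descriptions do not give the activity. Of its 13 tested genes 4 rose in Δvps21 and 1 fell, with a median of 0.43. TRIREDRAFT_47268, a GH3 gene, averaged 137 ± 3.57 CPM in Δvps21 and 21.4 ± 1.69 CPM in the wild type (log2 2.67, adjusted p = 4.47e-04 by edgeR). cel3a averaged 459 ± 95.8 CPM in Δvps21 and 103 ± 19.4 CPM in the wild type (log2 2.15, adjusted p = 0.00352). The fall, of the GH3 gene TRIREDRAFT_76227 (log2 -1.43, adjusted p = 0.015), was not called without Δvps21 replicate 1 (0.0662) or replicate 3 (0.0603). The list called hemicellulase genes here takes in the regulator gene xyr1 by its description. Of its 19 tested genes 6 rose and 6 fell in Δvps21, with a median of 0.75. Without Δvps13 replicate 3, 11 rose, xyr1 among them. TRIREDRAFT_72704, a gene of family GH27, which holds α-galactosidases, averaged 14.8 ± 1.52 CPM in Δvps21 and 2.46 ± 1.16 CPM in the wild type (log2 2.58, adjusted p = 6.36e-04). axe1, an acetyl xylan esterase gene, averaged 989 ± 178 CPM in Δvps21 and 166 ± 29.7 CPM in the wild type (log2 2.57, adjusted p = 0.00146). TRIREDRAFT_64827, a GH36 gene, averaged 3.35 ± 1.03 CPM in Δvps21 and 22.6 ± 0.458 CPM in the wild type (log2 -2.75, adjusted p = 2.66e-04). The other named fall was the scarce GH27 gene TRIREDRAFT_65986, with 3, 1 and 6 counts in Δvps21, 3, 6 and 8 in Δvps13 and 46, 35 and 33 in the wild type (log2 -3.26 in Δvps21, adjusted p = 0.00304, and log2 -4.04 without Δvps21 replicate 3).

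In Δvps13 relative to the wild type, 2 of 14 tested other cellulose-active genes rose and 2 fell, with a median log2 difference of 0.26, where 5.65% of all tested genes rose and 4.75% fell. The rises were man5a, with 1094 ± 604 CPM in Δvps13 and 242 ± 64.3 CPM in the wild type (log2 2.18, adjusted p = 0.00818 by edgeR), and cip1, with 3244 ± 996 CPM in Δvps13 and 1084 ± 141 CPM in the wild type (log2 1.58, adjusted p = 0.0107). Without wild-type replicate 2 neither was called (adjusted p = 0.057 for man5a and 0.0752 for cip1) and the list had 0 rises, while it had 4 without Δvps13 replicate 1 or 3. The falls were TRIREDRAFT_123946 (log2 -2.25, adjusted p = 0.00113) and the GH12 gene TRIREDRAFT_77284 (log2 -1.14, adjusted p = 0.0259). TRIREDRAFT_77284 belongs to the same family as cel12a, and it moved the other way. Its call was lost without any 1 of the wild-type libraries (adjusted p = 0.06 to 0.111), and 4 genes of the list fell without Δvps13 replicate 3. cel5a had a log2 difference of 1.26 (adjusted p = 0.0528 by edgeR), with 0.00537 without Δvps13 replicate 1 and 0.0489 without replicate 3. It was called by DESeq2 (0.00136) and limma voom (3.16e-04), with median-ratio size factors (0.0496) or library totals only (0.0258), and without a filter (0.0495).

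Of 13 tested β-glucosidase genes 1 rose in Δvps13, cel3a, with 310 ± 218 CPM in Δvps13 and 103 ± 19.4 CPM in the wild type (log2 1.59, adjusted p = 0.0373 by edgeR). Its call was lost without any 1 of the wild-type or Δvps21 libraries or without Δvps13 replicate 2 (adjusted p = 0.0513 to 0.154), and its log2 difference was 0.87 without Δvps13 replicate 3. Without Δvps13 replicate 1 or 3, 3 genes of that list rose, and without replicate 3, 2 fell. Of 19 tested hemicellulase genes 4 rose and 2 fell in Δvps13, with a median of 0.47. The GH10 gene TRIREDRAFT_120229, of a xylanase family, averaged 2046 ± 264 CPM in Δvps13 and 496 ± 59.2 CPM in the wild type (log2 2.04, adjusted p = 0.00245) and stayed called in all 9 fits with a library left out. axe1 averaged 1515 ± 1008 CPM in Δvps13 and 166 ± 29.7 CPM in the wild type (log2 3.19, adjusted p = 0.00294, and log2 2.52 without Δvps13 replicate 1). The falls were TRIREDRAFT_65986 (log2 -2.32, adjusted p = 0.032) and TRIREDRAFT_64827, with 7.67 ± 2.83 CPM in Δvps13 and 22.6 ± 0.458 CPM in the wild type (log2 -1.57, adjusted p = 0.0137). The call of TRIREDRAFT_65986 was lost without any 1 of the wild-type libraries, Δvps13 replicates 1 or 2 or Δvps21 replicate 1 (adjusted p = 0.0539 to 0.106), and that of TRIREDRAFT_64827 without any 1 of the wild-type libraries (0.0518 to 0.0677). The hemicellulase rises were 2 without wild-type replicate 2. The falls were 0 without any 1 of the wild-type libraries, 1 without Δvps13 replicate 1 or Δvps21 replicate 1 and 5 without Δvps13 replicate 3.

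Between Δvps21 and Δvps13, where the 7 genes had a median log2 difference of 0.06 beside -0.05 over all tested genes, 7.68% of tested genes were called higher and 7.55% lower. Of the β-glucosidase genes 2 of 13 were higher in Δvps21, the GH3 genes TRIREDRAFT_47268 and TRIREDRAFT_79669. TRIREDRAFT_79669 averaged 269 ± 32.9 CPM in Δvps21 and 107 ± 26.9 CPM in Δvps13 (log2 1.33, adjusted p = 0.00379 by edgeR), and TRIREDRAFT_47268 averaged 137 ± 3.57 CPM in Δvps21 and 41.2 ± 21.4 CPM in Δvps13 (log2 1.73, adjusted p = 0.00866). Both stayed called with each library left out, and the list median was 0.57. Without Δvps13 replicate 3, 5 genes of the list were higher in Δvps21, and without Δvps13 replicate 1, 3 were lower. The GH12 gene TRIREDRAFT_77284 was higher in Δvps21 (log2 0.94, adjusted p = 0.0411), the opposite sign to cel12a, and 7 of the 9 leave-out fits did not call it (adjusted p = 0.0606 to 0.16), namely all but those without Δvps13 replicates 2 or 3. The dehydrogenase gene TRIREDRAFT_123946 was lower in Δvps21 (log2 -0.89, adjusted p = 0.0311) and was not called in 7 of the 9 fits (adjusted p = 0.0523 to 0.109), namely all but those without Δvps13 replicates 1 or 3. These 2 were the calls among 14 tested other cellulose-active genes, whose median was 0.03, and 4 were higher without Δvps13 replicate 3 and 2 lower without Δvps13 replicate 1 or 3. Of 19 tested hemicellulase genes 1 was higher and 3 were lower in Δvps21, with a median of -0.51. The higher one was the GH54 gene TRIREDRAFT_55319, of a family of arabinofuranosidases, with 34.1 ± 5.53 CPM in Δvps21 and 4.8 ± 4.24 CPM in Δvps13 (log2 2.82, adjusted p = 0.00379, and log2 3.86 without Δvps13 replicate 2). Without Δvps13 replicate 3, 7 hemicellulase genes were higher. Among the lower ones were the GH27 gene TRIREDRAFT_75015, with 1.9 ± 0.506 CPM in Δvps21 and 5.62 ± 2.36 CPM in Δvps13 (log2 -1.57, adjusted p = 0.0233), and TRIREDRAFT_64827 (log2 -1.19, adjusted p = 0.035). The call of TRIREDRAFT_75015 was lost without Δvps13 replicate 2 or Δvps21 replicates 2 or 3 (0.0503 to 0.107), and that of TRIREDRAFT_64827 in 7 of the 9 fits (0.0544 to 0.122), namely all but those without Δvps13 replicates 1 or 3. The lower ones were 5 without Δvps13 replicate 1, 1 without Δvps21 replicate 1 or any 1 of the wild-type libraries, and 0 without Δvps13 replicate 2 or Δvps21 replicates 2 or 3.

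The genes of the regulators were read beside the 16.7% of tested genes called higher in Δvps21 and the 5.65% in Δvps13. xyr1, the gene of the main cellulase activator, averaged 1833 ± 156 CPM in Δvps21, 1741 ± 872 CPM in Δvps13 and 947 ± 62.3 CPM in the wild type. Its difference from the wild type did not pass in Δvps21 (log2 0.95, adjusted p = 0.0628 by edgeR), and was called there without Δvps13 replicate 1 (0.00201) or 3 (0.0121). It was also called there by DESeq2 (0.0191) and limma voom (1.84e-04), with the 2 strains alone (8.57e-05), with library totals only (0.0214) and with the replicate number as a block (0.0493). In Δvps13 it did not pass either (log2 0.88, adjusted p = 0.135), and was called without Δvps13 replicate 1 (0.00489) and by limma voom (0.00124). cre1, the gene of the carbon catabolite repressor, averaged 1603 ± 143 CPM in Δvps21, 997 ± 389 CPM in Δvps13 and 778 ± 77.8 CPM in the wild type. The labels do not give the cre1 allele of these strains, so its transcript level does not show whether they hold a working repressor. The cre1 transcript was higher in Δvps21 than in the wild type (log2 1.04, adjusted p = 0.0256 by edgeR). That call was lost without any 1 of the Δvps21 or wild-type libraries (adjusted p = 0.0521 to 0.106). In Δvps13 cre1 had a log2 difference of 0.36 (adjusted p = 0.469, 0.0425 without Δvps13 replicate 1 and 0.0247 by limma voom), which was -0.05 when libraries were scaled by totals alone.

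Among the other regulators, ace1, a repressor gene, had log2 differences from the wild type of 0.62 in Δvps21 (adjusted p = 0.154 by edgeR) and 0.53 in Δvps13 (0.285). Without Δvps13 replicate 3 ace1 was called in both, at adjusted p = 0.0398 in Δvps21 and 0.0265 in Δvps13. limma voom also called it in both (0.00663 in Δvps21 and 0.00155 in Δvps13), as did the fit of the 2 strains alone in Δvps21 (0.00444). hap2 and hap3, which encode CCAAT-binding subunits, had values of 0.34 and 0.06 in Δvps21 and 0.15 and -0.14 in Δvps13, with adjusted p-values from 0.253 to 0.824. hap5 had 0 counts in all libraries. Of the 4 tested regulators described here besides xyr1, 1 was called in Δvps21 and 0 in Δvps13 by edgeR. In Δvps13, 0 had an unadjusted p under 0.05, DESeq2 called 0 and limma voom 2. Of all tested genes, edgeR called 16.7% higher in Δvps21 and 5.65% in Δvps13, where DESeq2 called 10.1% higher and limma voom 23.1%. Between Δvps21 and Δvps13 edgeR called 0 of the 4, 1 had an unadjusted p under 0.05, DESeq2 called 0 and limma voom 1. Of all tested genes, edgeR called 15.2% there in either direction, DESeq2 21.9% and limma voom 33.8%. Nothing is read from these counts of so few genes. Without Δvps13 replicate 3, edgeR called cre1 between the deletion strains (adjusted p = 0.0377), as it did with library totals only (0.0117).

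Of 14 gene models next to the 7 on their scaffolds 11 were tested. In Δvps21, 4 of the 11 rose and 1 fell, where 16.7% of tested genes rose and 15.8% fell, and in Δvps13, 2 rose, where 5.65% did. TRIREDRAFT_109255, a predicted protein gene 1176 bases from TRIREDRAFT_49976, was higher in both, with 29.9 ± 3.25 CPM in Δvps21, 42.1 ± 14.1 CPM in Δvps13 and 9.08 ± 2.33 CPM in the wild type. Its log2 differences were 1.72 in Δvps21 (adjusted p = 0.00148 by edgeR) and 2.21 in Δvps13 (adjusted p = 0.00264), called in every fit with 1 library left out. TRIREDRAFT_62711, a predicted amino acid transporter gene 370 bases from cel7b, averaged 127 ± 27.9 CPM in Δvps21 and 46.1 ± 1.76 CPM in the wild type (log2 1.46, adjusted p = 0.00369). A gene model without a name lies 8 bases from TRIREDRAFT_49976 on the other strand, and the labels name no step that marks strand, so reads of such close neighbours may be shared. The neighbour rises were 1 in Δvps13 without any 1 of the wild-type or Δvps21 libraries and 2 in Δvps21 without wild-type replicate 2. The fall in Δvps21, of TRIREDRAFT_62484 next to cel7b (log2 -1.41, adjusted p = 0.0261), was lost without wild-type replicates 2 or 3 or any 1 of the Δvps21 libraries (adjusted p = 0.0567 to 0.104), and without Δvps13 replicate 3, 2 neighbours fell in each comparison.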

How the data were processed

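Poly-A RNA of 9 libraries was sequenced, and the authors deposited whole-number counts per gene and FPKM values. Per the submitters' processing notes, HISAT2 2.0.5 and featureCounts 1.5.0-p3 were used; the genome build is not given in the sources used here, nor is the annotation. The deposited FPKM equalled the counts over gene length and 1 factor per library, so FPKM is not independent of the counts. The 7 genes and all gene lists were chosen with earlier results of these data known.

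edgeR's filterByExpr (minimum count 10) left 8906 of 10348 genes, including all 7, which were TMM-scaled and entered a quasi-likelihood fit with 1 mean per strain over all 9 libraries (6 residual degrees of freedom). Benjamini-Hochberg adjustment covered every tested gene, with calls under 0.05. The fit (edgeR 4.0.16 in R 4.3.3, beside DESeq2 1.42.0 and limma 3.58.1) was also run on simulated counts. Those counts had the same spread per gene in every strain. That run therefore does not test calls under the wider spread of the Δvps13 libraries. Ratios to cel7a were compared by exact permutation tests.

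The lists are patterns in gene names and descriptions. xyr1 is counted among the hemicellulases and described with the regulators; the other cellulose-active list also takes env1, a GH17 gene and GH5 genes of other activity. Named besides the 7 were up to 2 called rises and up to 2 called falls of each list, those with the smallest p in each comparison. The regulators, the 10 genes most like the mean of the 7 and adjacent genes were named too. cel5a and cel61a levels, and the neighbours described singly, were chosen after their values were seen. Alternatives were DESeq2, limma-trend on log2(FPKM + 1) and log2(FPKM + 0.1), limma voom with quality weights, the 2 strains alone, other scalings and filters, a minimum log2 of 1, the replicate number as a block and fits without each library in turn. Replicates differed by 13.1 or more chi-square units per degree of freedom, so no 2 libraries were counted as 1. Protein and promoter sequences were not analysed here. One further regulator gene is not reported here.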

Additional observations from a re-analysis of the deposited data

How the results depend on the processing

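In Δvps21 relative to the wild type all 7 genes stayed called under all 11 alternatives other than leaving out a library, and 6 or 7 with each library left out. Of all tested genes, 9.79% to 30.9% were called higher there under those alternatives, and 10.5% to 24.2% with each library left out. In Δvps13 relative to the wild type 5 to 7 of the 7 were called under those alternatives, except 3 when the 2 strains were fitted alone, and 3 to 7 with each library left out. Of all tested genes, 1.77% to 23.1% were called higher there under those alternatives, the lowest share being that of the 2 strains alone. With each library left out that share was 0.878% to 18.2%. Between Δvps21 and Δvps13, DESeq2 called 1, limma voom with sample quality weights 3, median-ratio size factors 1 and library totals only 2, the other alternatives 0, and leaving out each library 0 to 1. Of all tested genes, 7.14% to 33.8% were called there in either direction under those alternatives, and 5.70% to 24.5% with each library left out. With counts outside the 50 most abundant other genes as the denominator, the 7 genes took 13.2% in Δvps21, 9.91% in Δvps13 and 3.18% in the wild type; the smaller denominator raises these shares by construction.

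Signs turned for some values near 0; the cause was not tested. With library totals only, the log2 differences were -0.05 for cre1 and -0.16 for hap2 in Δvps13 relative to the wild type, and -0.12 for hap3 in Δvps21 relative to the wild type (hap3 -0.00 with the filter of 10 CPM in 3 libraries). With limma voom, those between Δvps21 and Δvps13 were 0.04 for TRIREDRAFT_49976 and -0.30 for ace1. With each library left out, hap2 in Δvps13 relative to the wild type ran from -0.02 to 0.26. Between Δvps21 and Δvps13, cel61b ran from -0.32 to 0.82, cip2 from -0.24 to 0.44, ace1 from -0.18 to 0.46 and xyr1 from -0.26 to 0.48.

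Samples of 1 number showed no steady shared deviation. Same-number correlations ran from 0.082 to 0.142 for Δvps13 with the wild type and from -0.042 to 0.096 for Δvps21 with the wild type. For Δvps21 with Δvps13 they ran from -0.098 to 0.47, the highest being replicate 1. Different-number correlations ran, in the same order of comparisons, from -0.182 to 0.086, from -0.103 to 0.072 and from -0.427 to 0.419. The numbers are not taken to pair samples, though a weak shared deviation is not excluded. With the replicate number as a block, 7 of the 7 genes were called in Δvps21 relative to the wild type, 6 in Δvps13 relative to the wild type (cel61b had an adjusted p of 0.0634 by edgeR) and 0 between Δvps21 and Δvps13. Of all tested genes, the block fit called 16.6% higher in Δvps21 and 4.68% higher in Δvps13 relative to the wild type. Between the deletion strains it called 14.5% in either direction. With 3 libraries per strain and the spread within Δvps13, differences between the deletion strains of the sizes in the intervals above could not be resolved.

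Counts of called genes moved more. Of all tested genes, the edgeR fit called 926 in Δvps13 relative to the wild type, where the 2 strains alone gave 298, DESeq2 1620 and limma voom 4177. It called 2897 in Δvps21 relative to the wild type, where the 2 strains alone gave 4889 and limma voom 5515. Between Δvps21 and Δvps13 it called 1356, where the 2 strains alone gave 612 and limma voom 3009. In what follows the count of the edgeR fit stands in brackets. In Δvps21 relative to the wild type, limma voom called 8 other cellulose-active genes higher (5), and limma voom and the 2 strains alone each called 3 of them lower (1), 7 β-glucosidase genes higher (4) and 2 lower (1), 11 hemicellulase genes higher (6), and 7 neighbours higher (4) and 2 lower (1). There the regulators called higher were 3 with limma voom and 2 with the 2 strains alone (1), library totals called 2 β-glucosidase genes higher, and the filter of 10 CPM called 2 neighbours higher and 0 lower.

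In Δvps13 relative to the wild type, other cellulose-active genes called higher ran from 1 with the 2 strains alone to 4 with DESeq2, limma voom and library totals (2), and lower from 1 to 4 (2), β-glucosidase genes higher from 0 with the 2 strains alone, the block and both FPKM fits to 4 (1) and lower from 0 to 2 (0), the block and library totals giving 1. Hemicellulase genes called higher were 2 with the 2 strains alone (4) and lower 1 to 5 (2), regulators higher 0 to 2 (0), and neighbours lower 0 to 1 (0) and higher 1 to 3 (2). Between Δvps21 and Δvps13, other cellulose-active genes called higher ran from 0 to 5 (1) and lower from 0 to 2 (1), β-glucosidase genes higher from 2 to 6 (2) and lower from 0 to 1 (0), hemicellulase genes higher from 1 to 6 (1) and lower from 0 to 4 (3), and regulators higher from 0 to 1 (0). The highest of each of these ranges came from limma voom, alone or with others, and the lowest from the 2 strains alone, alone or with others.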
